A study of Rattus norvegicus with 58 samples.

Results

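The last step of an oral dose series in rat liver is described here: livers of rats given 500 mg/kg of 4-methylcyclohexanemethanol (MCHM) against livers of rats given 300 mg/kg. MCHM is an alicyclic alcohol used to wash coal. All animals were male Harlan Sprague-Dawley rats dosed by gavage for 5 days, and the labels state neither their age nor the vehicle. The step rests on 8 of the 58 arrays of the series, 4 from livers at 500 mg/kg and 4 from livers at 300 mg/kg, chosen by their labels, with 1 Affymetrix Rat Genome array for each liver. No control array enters the difference. The other 21 liver arrays (5 at 0 mg/kg and 4 at each of 0.1, 1, 10 and 100 mg/kg) served to estimate the spread between replicates, and 29 kidney arrays of the same doses served as a second organ. Every value below is on the log2 scale of the deposited intensities, and a difference is the mean at 500 minus the mean at 300 mg/kg. The question the step answers is which liver transcripts moved further when the dose was raised from 300 to 500 mg/kg, as opposed to those that differ from control at both doses.

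Hepatocytes burn fatty acids in mitochondria and peroxisomes, build fatty acids and cholesterol, break down surplus amino acids, and secrete most plasma proteins. Foreign compounds commonly engage nuclear receptors in these cells: CAR and PXR induce enzymes and transporters of drug clearance, and PPAR alpha induces enzymes of fatty acid oxidation. Whole liver RNA also carries transcripts of Kupffer cells (the resident macrophages), sinusoidal endothelium, stellate cells and blood cells.

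No gene passed the test at this step. Of 11275 genes tested in limma, 0 had a Benjamini-Hochberg adjusted p under 0.05 (0% of the genes tested), and the smallest adjusted p was 0.766. The unadjusted p was under 0.05 for 648 genes (5.75%), against 564 that a 5% rate would give. They comprised 375 genes with a higher mean at 500 mg/kg (3.33%) and 273 with a lower mean (2.42%). The 4 arrays at 500 lay wholly above or wholly below the 4 at 300 mg/kg for 321 genes (2.85%), 162 above (1.44%) and 159 below (1.41%). A difference of at least 1.5-fold was seen for 40 genes (0.355%). The size of the differences was small beside their error: the median absolute difference was 0.07, the 95th percentile of it 0.28, and the median 95% confidence interval reached 0.22 to either side. The median SD between arrays of a group was 0.14 at each dose. Slightly more genes lay above 0 (6149 genes, 54.5%) than below (5126 genes, 45.5%), with a median difference of 0.01. After quantile or cyclic loess normalization the median was -0.00. Since nothing passed, the genes below are given by their values, and none of them is called changed.

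**Figure D1:**
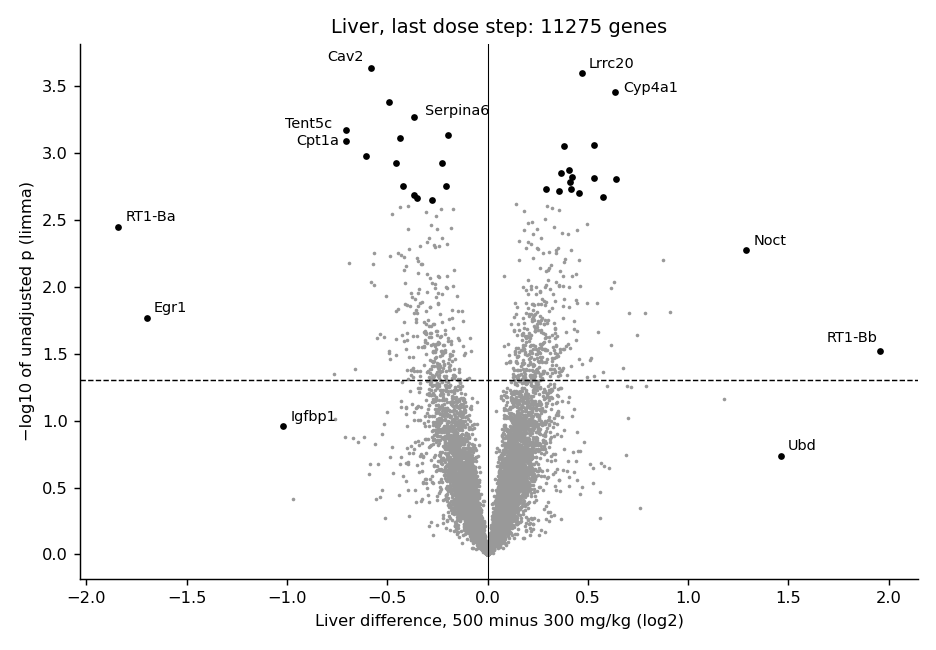
Each of the 11275 liver genes by its difference between 500 and 300 mg/kg (horizontal axis, log2) and the −log10 of its unadjusted limma p (vertical axis); black points are the genes named by rule, and the dashed line marks an unadjusted p of 0.05. Cav2 has the smallest p, 0.000234, and the points with the widest differences, RT1-Bb at 1.96 and RT1-Ba at -1.84, do not have the smallest p.

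The 8 arrays resembled each other closely. Their 28 pairs correlated at 0.990 to 0.993 and 0 pairs held identical values. Albumin (Alb) stood at the 100th percentile of every array. The kidney genes Umod, Slc34a1 and Nphs1 lay at percentiles 29.5 to 47.7, 41.6 to 53.2 and 11.6 to 26.1. None of 7 array quality measures, among them the 3′ to 5′ differences of actin and GAPDH, separated the doses (exact permutation test over 70 splits, two-sided, p = 0.2 to 0.971, where the smallest possible p is 0.0286).

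Among genes of fatty acid oxidation and targets of PPAR alpha, the values pointed in opposite directions for the omega-hydroxylase and for the mitochondrial gatekeeper. Cyp4a1, a cytochrome P450 that hydroxylates the end of fatty acid chains, read 11.35, 10.81, 10.98 and 11.07 in replicates 1 to 4 at 300 mg/kg. At 500 mg/kg it read 11.66, 11.40, 12.01 and 11.66, so that every array lay above every array at 300. The difference was 0.63 (SE 0.15, 95% interval 0.32 to 0.95, adjusted p = 0.766 in limma). Cpt1a, which commits long-chain fatty acids to entry into mitochondria, read 10.65, 11.08, 10.65 and 10.72 at 300 and 10.41, 10.13, 9.79 and 9.95 at 500 mg/kg. All 4 arrays at 500 lay below all 4 at 300, with a difference of -0.70 (SE 0.19, interval -1.09 to -0.32, adjusted p = 0.766), and a second Cpt1a probe set gave -0.81. Since the groups of both genes did not overlap, leaving out 1 array could not reverse either difference. With single arrays left out the difference ran from 0.52 to 0.73 for Cyp4a1 and from -0.82 to -0.60 for Cpt1a. Changing the normalization reversed neither gene.

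Enzymes further along the same pathway sat on the side of Cyp4a1. Ehhadh, the bifunctional enzyme of peroxisomal beta-oxidation, read 11.44, 11.11, 11.37 and 11.51 at 300 and 11.60, 11.99, 11.96 and 11.48 at 500 mg/kg. Its groups overlapped through the fourth array at 500, and the difference was 0.40 (SE 0.13, adjusted p = 0.766). Eci1, an isomerase for unsaturated fatty acids, read 11.99, 11.83, 11.72 and 11.64 at 300 and 12.07, 12.20, 12.59 and 12.08 at 500, without overlap. Its difference was 0.44 (SE 0.15, adjusted p = 0.816), but a second, dimmer Eci1 probe set gave -0.29. The thioesterase Acot2 differed by 0.26 (SE 0.13). In the whole list of 30 measured genes, 22 lay above 0 with a median of 0.03, against 54.5% of all genes and a median of 0.01. The unadjusted p was under 0.05 for 4 higher genes (Cyp4a1, Ehhadh, Eci1 and Acot2) and 1 lower, Cpt1a. Over all genes the shares were 3.33% higher and 2.42% lower. The long list of mitochondrial beta-oxidation enzymes lay near 0: Acadm at 0.04, Acadl at 0.06, Hadha at 0.03 and Cpt2 at 0.08. With each array left out in turn the count above 0 ran from 15 to 25, the lowest without the third array at 500 mg/kg.

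Genes of fatty acid synthesis lay above 0 by more than most, with wide errors. Of 22 measured members 16 were above 0, the median was 0.20, and 0 had an unadjusted p under 0.05. Thrsp, a nuclear regulator of lipogenesis, read 11.60, 11.30, 10.83 and 11.01 at 300 and 11.83, 11.68, 11.89 and 12.11 at 500 mg/kg. The groups did not overlap, and the difference was 0.70 (SE 0.35, adjusted p = 0.882), with 0.63 and 0.78 from 2 other probe sets. Elovl6, which lengthens palmitate, read 7.98 to 9.18 at 300 and 8.78, 8.39, 9.24 and 9.37 at 500, and its first array at 300 lay among those at 500. Its difference was 0.60 (SE 0.30, adjusted p = 0.882). Srebf1, the transcription factor that drives these enzymes, differed by 0.37 (SE 0.20), Acly by 0.34 (SE 0.19), Acaca by 0.26 (SE 0.17), Fasn by 0.27 (SE 0.19) and the desaturase Scd by 0.69 (SE 0.50). The polyunsaturated branch did not share the sign: Fads1 differed by -0.22 (SE 0.12), Fads2 by -0.16 and Elovl2 by -0.18. Without the second array at 300 mg/kg the median of the list was 0.08, and over the other arrays left out it reached 0.23. With the mean over each gene's probe sets it was 0.12.

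Sterol genes gave a smaller shift, and 1 member stood apart. Insig1, the endoplasmic reticulum protein that retains the sterol sensor SCAP, read 10.86, 10.59, 10.68 and 11.08 at 300 and 11.20, 11.67, 12.01 and 11.15 at 500 mg/kg. All 4 arrays at 500 were above those at 300, and the difference was 0.71 (SE 0.27, adjusted p = 0.831). The enzymes of cholesterol synthesis did not follow as a group: Dhcr7 differed by 0.18 (SE 0.14), Msmo1 by 0.22 (SE 0.20), Fdft1 by 0.09, Sqle by -0.01 and Cyp51 by -0.07. Of 20 measured genes of sterol synthesis and uptake, 14 lay above 0 with a median of 0.05. Without the third array at 500 mg/kg 7 lay above 0 and the median was -0.02, and without the second at 300 mg/kg 7 lay above 0 and it was -0.01.

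Enzymes of amino acid breakdown lay above 0 more often than genes at large. Of 37 measured members 31 were above 0 with a median of 0.10, and 9 had an unadjusted p under 0.05 in the higher direction and 0 in the lower, where all genes gave 3.33% and 2.42%. The mean over the list was 10.52 to 10.57 on the arrays at 300 and 10.60 to 10.79 on those at 500 mg/kg, without overlap. No other list of the 43 parted in this way, and 2.85% of all single genes did. A list mean and a single gene are unlike measures, and the parting was found by looking over all 43 lists. The lists were written with earlier results of these data known. How often a list would part by chance was not tested. Tat, the aminotransferase that starts tyrosine breakdown and a textbook glucocorticoid target, read 9.45, 9.12, 8.91 and 9.75 at 300 and 10.64, 9.45, 10.26 and 9.87 at 500. The groups overlapped, with a difference of 0.74 (SE 0.31, adjusted p = 0.831). Hgd, which opens the ring of homogentisate later in the same pathway, differed by 0.19 (SE 0.06, adjusted p = 0.766), and its lowest array at 500, 10.93, lay below its highest at 300, 10.97. Aass of lysine breakdown differed by 0.31 (SE 0.11), the glycine methyltransferase Gnmt by 0.27 (SE 0.11), alanine aminotransferase Gpt by 0.42 (SE 0.19), the betaine-homocysteine methyltransferase Bhmt by 0.37 (SE 0.17) and Bckdhb of branched-chain breakdown by 0.26 (SE 0.11). With single arrays left out the count above 0 ran from 26 to 34 and the median from 0.06 to 0.12. The count at an unadjusted p under 0.05 was 3 without the second array at 300 mg/kg, 5 without the fourth at 300 or the second or the third at 500 mg/kg, and at most 11.

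The urea cycle, which disposes of the nitrogen those enzymes release, was divided. Of 10 members 5 lay above 0. Arg1, the arginase that forms urea, read 12.62, 12.79, 12.70 and 12.96 at 300 and 12.96, 12.96, 12.96 and 13.19 at 500 mg/kg. The fourth array at 500 was the highest by a margin, and the difference was 0.25 (SE 0.08, adjusted p = 0.766). Nags, whose product activates the first step of the cycle, differed by 0.20 (SE 0.07). The glutamine carrier Slc38a3 differed by -0.23 (SE 0.08), with all 4 arrays at 500 below those at 300 (10.64 to 10.83 against 10.85 to 11.09).

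Noct, a rhythmically expressed phosphatase, had the widest difference among the 162 genes whose arrays at 500 all lay above those at 300 mg/kg. Noct read 4.06, 4.25, 5.03 and 5.43 at 300 and 6.12, 5.49, 6.08 and 6.23 at 500 mg/kg, with a difference of 1.29 (SE 0.43, interval 0.42 to 2.16, adjusted p = 0.766). It was dim at 300 mg/kg, where its mean of 4.69 lay under the array medians of 5.28 to 5.30. Other clock genes had wide errors: Cry1 differed by 0.40 (SE 0.30), Dbp by 0.27 (SE 0.60), Nr1d1 by -0.28 (SE 0.50) and Per1 by -0.01 (SE 0.12). Of the 18 clock genes 13 lay above 0. Tsc22d3, a glucocorticoid-induced leucine zipper protein, read 8.74, 9.44, 9.13 and 9.14 at 300 and 9.34, 9.46, 9.58 and 9.57 at 500, a difference of 0.37 (SE 0.14, adjusted p = 0.831). The 17 glucocorticoid-responsive genes as a list lay close to even in sign, with 9 above 0 and a median of 0.01. Of these 17 genes, 3 were higher and 0 lower at an unadjusted p under 0.05, where all genes gave 3.33% and 2.42%. Igfbp1, a secreted binder of insulin-like growth factors that insulin represses, had the third widest difference below 0, -1.02, but with an SE of 0.62 and single values from 8.93 to 11.37 at 300 and from 8.75 to 10.38 at 500.

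Subunits of oxidative phosphorylation lay nearly all on 1 side of 0, at very small size. Of 49 measured subunits of the respiratory chain and ATP synthase 48 lay above 0, against 54.5% of all genes. Their median was 0.06, and they ranged from -0.02 (Cox7c) to 0.18 (Ndufv2). The unadjusted p was under 0.05 for 8 in the higher direction and 0 in the lower, where all genes gave 3.33% and 2.42%. Ndufb9, a complex I subunit, averaged 12.06 ± 0.07 (SD, n = 4) at 300 and 12.21 ± 0.05 at 500 mg/kg, with the highest array at 300 (12.146) just under the lowest at 500 (12.147) and a difference of 0.14 (SE 0.04, adjusted p = 0.766). Atp5f1b, the catalytic beta subunit of ATP synthase, read 12.85, 12.82, 12.86 and 12.86 at 300 and 12.96, 12.93, 12.93 and 12.91 at 500, a difference of 0.08 (SE 0.03, adjusted p = 0.816). The mean over all 49 was 11.25 to 11.36 at 300 and 11.34 to 11.43 at 500, so the groups overlapped on this measure. Values of such genes on 1 array are not independent of each other. The count above 0 ran from 43 to 47 with single arrays left out and was 45 and 46 after quantile and loess normalization. The count at an unadjusted p under 0.05 was 3 without the fourth array at 300 mg/kg and 4 without the second or the third at 500 mg/kg. It was 12 after loess normalization or without the second array at 300 mg/kg. The glutathione transferases Gstk1, Mgst3 and Gsto1 differed by 0.18 (SE 0.06), 0.22 (SE 0.09) and 0.13 (SE 0.05), with 12 of 19 members of their list above 0.

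**Figure D2:**
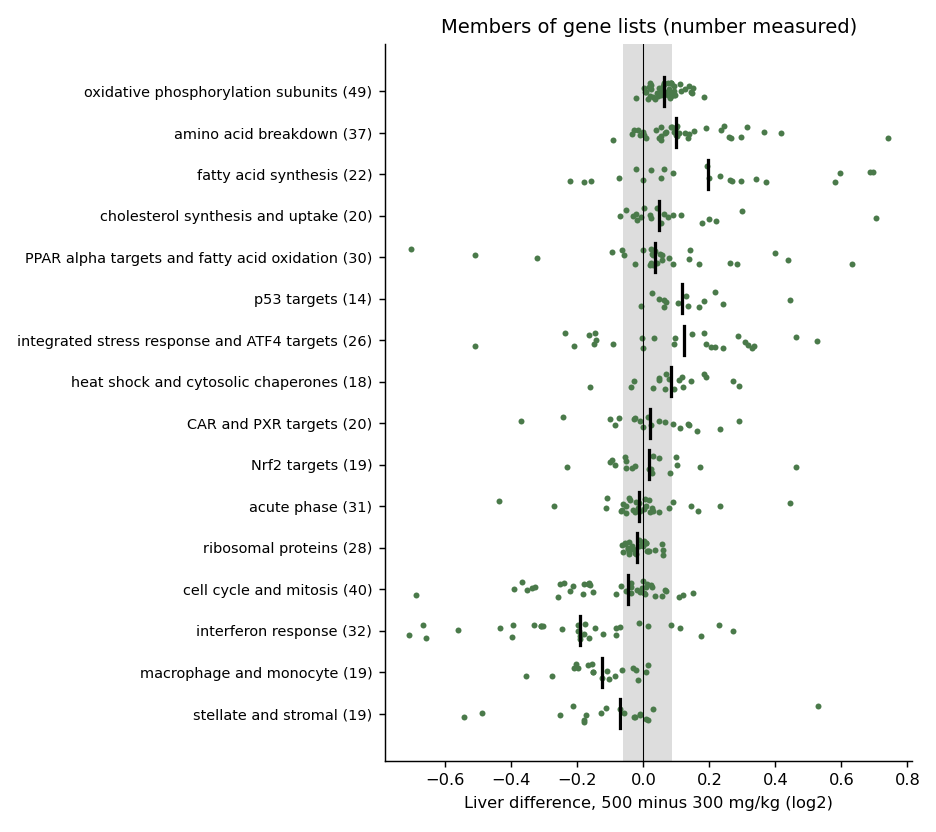
Difference between 500 and 300 mg/kg in liver (log2, horizontal axis) for every measured member of 16 gene lists; points are genes, the black bar is the list's median, and the grey band holds the middle part of all genes tested, from the lower to the upper quartile. The 49 oxidative phosphorylation subunits cluster just above 0 with a median of 0.06, and the 32 interferon response genes spread below 0 with a median of -0.19.

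Among the genes of smallest p or from several lists, 5 secreted proteins with lower values at 500 mg/kg are grouped here after their values were seen, and none passed the test. Serpina6, the globulin that carries corticosteroids in blood, read 12.38, 12.24, 11.89 and 11.91 at 300 and 11.79, 11.84, 11.76 and 11.57 at 500. All 4 arrays at 500 lay below those at 300, with a difference of -0.37 (SE 0.09, interval -0.56 to -0.17, adjusted p = 0.766). Apoa1, the main protein of high-density lipoprotein, read 13.38, 13.52, 13.11 and 13.17 at 300 and 13.08, 13.11, 13.11 and 12.95 at 500, a difference of -0.23 (SE 0.07, adjusted p = 0.766). Its groups parted by a hair, at 13.11 on either side. Tfpi, the inhibitor of the tissue factor pathway of clotting, differed by -0.35 (SE 0.10) without overlap, and its second probe set gave -0.25. C5, the fifth complement component, read 11.17, 11.17, 11.12 and 11.09 at 300 and 10.78, 10.86, 10.85 and 11.15 at 500, so that the fourth array at 500 lay among those at 300. Its difference was -0.23 (SE 0.06, adjusted p = 0.766). Igfbp3, the main carrier of insulin-like growth factors in blood, differed by -0.30 (SE 0.10) without overlap. The acute phase list, used here for secreted liver proteins though it also holds the receptor Il1r1 (0.44), had a median of -0.01. Of 31 measured, 14 were above 0, and the differences ran from -0.44 to 0.44. Fga, Fgb, Hp and C3 differed by -0.04, -0.03, 0.02 and 0.00.

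Cav2 had the smallest p of all genes. It encodes caveolin 2, a protein of caveolae, and is best known from endothelium and fat. It read 7.30, 8.13, 7.88 and 7.77 at 300 and 6.98, 7.37, 7.14 and 7.29 at 500 mg/kg. The groups overlapped by the first array at 300, which lay below 1 array at 500. The difference was -0.58 (SE 0.14, interval -0.86 to -0.30, adjusted p = 0.766 in limma), and the 3 other Cav2 probe sets gave -0.61 to -0.38. Without that first array at 300 mg/kg the difference was -0.74 with an adjusted p = 0.0457, the sole call at this step under any alternative run. Its partner Cav1 differed by -0.03 (SE 0.20). The endothelial list as a whole stood at 10 of 19 above 0 with a median of 0.01, with 6 of 19 above 0 and a median of -0.01 after quantile or loess normalization, and with Pecam1 at -0.06, Kdr at -0.03, Stab2 at 0.01 and Tek at 0.15. The mean of that list was 7.43 to 7.47 at 300 and 7.35 to 7.52 at 500.

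The remaining genes with the smallest p in each direction came from many processes. Higher at 500 mg/kg were Atp1b1 and Atp1b2, beta subunits of the sodium pump. Atp1b1 read 8.59, 8.51, 8.70 and 8.74 at 300 and 8.81, 9.22, 8.94 and 9.21 at 500, without overlap, and differed by 0.41 (SE 0.11), with 0.27 from its second probe set. Atp1b2, much dimmer, differed by 0.36 (SE 0.10), also without overlap, with 0.15 from its second probe set. Lrrc20, a leucine-rich repeat protein, had the smallest p in the higher direction: it read 5.73 to 6.32 at 300 and 6.48, 6.53, 6.64 and 6.37 at 500, a difference of 0.47 (SE 0.11). Chek1, a kinase of the DNA damage checkpoint, differed by 0.58 (SE 0.17) without overlap, with means of 5.71 ± 0.32 (SD, n = 4) at 300 and 6.29 ± 0.10 at 500. Hes6, a helix-loop-helix regulator, differed by 0.53 (SE 0.15), Upf3b of nonsense-mediated decay by 0.38 (SE 0.10), the histone deacetylase Hdac11 by 0.41 (SE 0.12), and the kinesin light chain Klc4 by 0.29 (SE 0.08), whose 4 arrays at 500 lay between 8.20 and 8.25. Hoxa11, Gpr158, Dip2a, Cdc42ep5, Fam220a and Fam151b completed the 15, at 0.36 to 0.64. Second probe sets of Fam220a and Fam151b gave 0.17 and 0.10. Hoxa11 and Gpr158 were dim, at means of 4.15 and 4.35 at 300 mg/kg, where the array medians were 5.28 to 5.30.

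In the lower direction Tent5c, a cytoplasmic poly(A) polymerase, read 7.04, 7.48, 7.08 and 6.63 at 300 and 6.31, 6.91, 6.09 and 6.10 at 500 mg/kg. Its groups overlapped, and the difference was -0.70 (SE 0.18). Mef2c, a transcription factor of muscle and immune cells, read 5.64, 5.70, 5.87 and 5.94 at 300 and 5.33, 5.03, 5.17 and 5.21 at 500, a clear gap with a difference of -0.60 (SE 0.16). But a second Mef2c probe set, nearly as bright over the liver arrays (mean 5.51 against 5.52), gave 0.02. Cdh2, N-cadherin, which joins hepatocytes to each other, differed by -0.21 (SE 0.06) without overlap on its brightest probe set (10.17 to 10.36 at 300, 10.04 to 10.11 at 500). The 2 other Cdh2 probe sets gave -0.15 and 0.33, and their mean with the first was -0.01. Aldh1a3, which makes retinoic acid, differed by -0.42 (SE 0.12), the solute carrier Slc17a2 by -0.28 (SE 0.08) and the glutaminyl cyclase homologue Qpctl by -0.37 (SE 0.11), each without overlap. Batf2 and Slfn2, genes of immune cells, differed by -0.49 (SE 0.12) and -0.44 (SE 0.11), Fam43a by -0.46 (SE 0.13) and Aph1a, a gamma-secretase subunit, by -0.20 (SE 0.05). Batf2 and Fam43a were dim, at means of 5.18 and 5.17 at 300 mg/kg, under the array medians. The adjusted p of all 30 genes of smallest p was 0.766, since the adjustment carries the same value down the ranks.

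**Figure D3:**
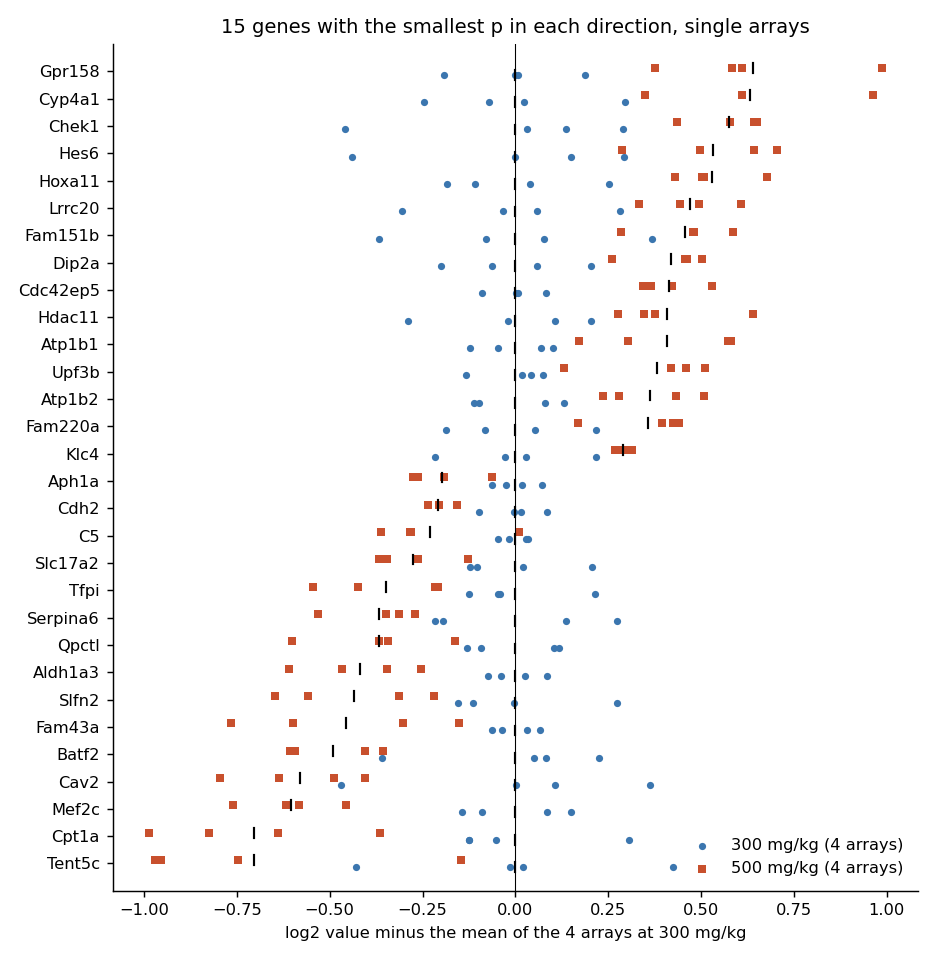
Single arrays of the 15 genes with the smallest p in each direction, as log2 value minus the gene's mean at 300 mg/kg (horizontal axis); circles are the 4 arrays at 300, squares the 4 at 500 mg/kg, and black ticks the means. Cpt1a and, on the probe set shown, Mef2c show a gap between the doses, while Cav2, Tent5c and C5 overlap in at least 1 array.

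Proliferation genes lay mostly below 0. Ccnd1, cyclin D1, which carries cells out of rest, read 9.44, 9.78, 9.22 and 9.44 at 300 and 8.93, 8.34, 8.90 and 8.96 at 500 mg/kg. The groups did not overlap, the difference was -0.69 (SE 0.23, adjusted p = 0.78), and 2 other Ccnd1 probe sets gave -0.60 and -0.53. Of 40 measured cell cycle genes 13 lay above 0 with a median of -0.05, against 54.5% of all genes. At an unadjusted p under 0.05 there were 0 higher and 3 lower, where all genes gave 3.33% and 2.42%. The mitotic genes Cdc20, Birc5 and Aurka differed by -0.39 (SE 0.17), -0.24 (SE 0.12) and -0.35 (SE 0.20) at levels between 4.62 and 6.88. The 4 other, dimmer Cdc20 probe sets gave -0.04 to 0.11. The list mean was 5.66 to 5.91 at 300 and 5.65 to 5.74 at 500 mg/kg. Without the fourth array at 300 mg/kg 6 of the 40 lay above 0. Of 14 measured p53 targets 13 lay above 0, with a median of 0.12, and Phlda3, a p53-induced inhibitor of Akt, differed by 0.44 (SE 0.18).

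The immediate early gene Egr1, a growth-factor induced transcription factor, read 8.90, 10.04, 8.78 and 7.16 at 300 and 7.74, 7.50, 6.17 and 6.68 at 500 mg/kg. The difference of -1.70 was the second widest below 0, but the arrays at 300 ran from 7.16 to 10.04, the SE was 0.67 and the adjusted p was 0.831. The list of immediate early genes stood at 13 of 24 above 0, and Jund, a member of the AP-1 family, differed by 0.36 (SE 0.17). The 2 other, dimmer Jund probe sets gave 0.02 and 0.24.

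Immune transcripts lay largely below 0, with 1 array against the trend. Of 19 measured macrophage and monocyte markers 2 lay above 0, with a median of -0.13, and of 32 interferon response genes 6, with a median of -0.19. Over all genes 54.5% lay above 0, and the unadjusted p was under 0.05 for 3.33% higher and 2.42% lower. It was so for 0 higher and 3 lower macrophage markers, and, near those shares, for 1 higher and 1 lower interferon gene. The higher one, with the smallest p of its list, was the chemokine Cxcl11, which read 9.06, 8.77, 8.85 and 9.24 at 300 and 9.19, 9.29, 9.31 and 9.22 at 500 mg/kg, a difference of 0.27 (SE 0.12). The lower one was Rtp4, an interferon-induced chaperone of receptors. It read 8.94, 9.16, 9.60 and 9.23 at 300 and 8.40, 8.17, 8.13 and 9.60 at 500 mg/kg. The first 3 arrays at 500 lay below all of those at 300, and the fourth matched the highest. Herc6, an interferon-induced ubiquitin ligase, read 4.83, 4.99, 5.34 and 5.14 at 300 and 4.58, 4.03, 4.29 and 5.66 at 500, with the same array apart, and Ly86, a partner of a Toll-like receptor homologue on immune cells, read 7.05 to 7.29 at 300 and 6.46, 6.68, 6.58 and 7.43 at 500. Without the fourth array at 500 mg/kg the median was -0.42 for the interferon genes (3 above 0, and 15 lower at an unadjusted p under 0.05) and -0.22 for the macrophage markers (0 above 0). Without the third it was -0.10 for the interferon genes (11 above 0). For the macrophage markers it was -0.04 without the first array at 500 and -0.08 without the third at 300 (4 above 0 each). The mean over the macrophage list was 8.25 to 8.42 at 300 and 7.98 to 8.50 at 500, and that over the interferon list 7.11 to 7.71 and 6.85 to 7.95, so the groups overlapped on both. In whole tissue, fewer cells of a type and less RNA per cell cannot be told apart.

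Among the other cell type lists, hepatocyte markers lay close to 0 and stromal and lymphocyte markers mostly below it. Of 12 hepatocyte markers 4 lay above 0, with a median of -0.01, and their list mean was 13.20 to 13.27 at 300 and 13.21 to 13.30 at 500. Stellate and stromal markers had 4 of 19 above 0 with a median of -0.07. Dcn, the matrix proteoglycan decorin, read 6.58 to 7.01 at 300 and 6.26 to 6.35 at 500 without overlap (difference -0.49, SE 0.22), while Tagln of contractile cells differed by 0.53 (SE 0.25). Lymphocyte markers had 3 of 13 above 0, and 7 without the second array at 300, with Jchain of plasma cells at -0.49 (SE 0.21) and Cd4 at -0.34 (SE 0.16). A second, dimmer Jchain probe set gave -0.01. Of 4 measured cholangiocyte markers 2 lay above 0, with Spp1 at -0.35 (SE 0.23) and Krt19 at -0.31 (SE 0.20). Of 5 erythroid markers 2 and of 3 neutrophil markers 2 lay above 0. How far cell content entered any of the differences above was not tested.

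The class II genes RT1-Ba and RT1-Bb, the alpha and beta chains of the RT1-B molecule that presents peptides to helper T cells, had the widest differences of all in opposite directions. RT1-Bb read 6.91, 4.31, 3.97 and 5.08 at 300 and 6.57, 6.97, 6.47 and 8.10 at 500 mg/kg, a difference of 1.96 (SE 0.86, adjusted p = 0.831). Its other probe set gave -0.22. RT1-Ba read 8.20, 9.49, 9.41 and 9.51 at 300 and 8.22, 8.34, 8.23 and 4.47 at 500, a difference of -1.84 (SE 0.58, adjusted p = 0.766), and -0.89 without the fourth array at 500. Its 3 other probe sets gave -0.04 to 0.75. Both pairs of groups overlapped, through the first array at 300 mg/kg. In kidney the same probe sets gave 8.22, 4.41, 4.09 and 4.26 at 300 and 8.57, 8.27, 8.08 and 9.39 at 500 for RT1-Bb, and 9.02, 10.39, 10.19 and 10.78 at 300 and 9.43, 9.23, 9.22 and 5.73 at 500 for RT1-Ba. In both organs replicate 1 held the highest RT1-Bb and the lowest RT1-Ba value at 300 mg/kg, and replicate 4 the highest RT1-Bb and the lowest RT1-Ba value at 500. The other class II genes were far steadier, with Cd74, the invariant chain, at -0.25 (SE 0.15) and Ciita, the class II transactivator, at -0.29 (SE 0.18), whose other probe set gave 0.21. Ubd, a ubiquitin-like modifier, was as variable, reading 7.69, 7.68, 4.78 and 4.97 at 300 and 8.38, 7.90, 4.89 and 9.79 at 500, a difference of 1.46 with an SE of 1.07.

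The genes that differed from control already at 300 mg/kg lay close together at the 2 doses, Lmcd1 excepted. Against the 5 control arrays, 3 genes were called at 300 mg/kg (0.0266% of the genes tested) and 108 at 500 mg/kg (0.958%), comparisons that share their controls with each other. Tm7sf2, a sterol reductase, read 11.17, 11.11, 11.32 and 11.22 at 300 and 11.13, 11.46, 11.31 and 11.01 at 500 mg/kg, against 10.33 to 10.61 in controls. Its difference at the step was 0.02, with an interval from -0.22 to 0.27. Cyp3a23-3a1, an inducible drug-metabolising P450, read 12.85 to 13.06 at 300 and averaged 13.08 ± 0.07 (SD, n = 4) at 500, a difference of 0.09 with an interval from -0.09 to 0.27, against 12.39 to 12.65 in controls. Lmcd1, a LIM-domain protein, was lowest at 300: it averaged 5.48 in controls, 4.69 at 300 and 5.04 at 500 mg/kg. Its step was 0.35 (SE 0.14, adjusted p = 0.831), back towards control. These 3 genes were chosen for their values on the same 4 arrays at 300 mg/kg, so a step back towards control is no independent result. Drug clearance genes as lists stood near even in sign. At an unadjusted p under 0.05 there were 0 higher and 2 lower CAR and PXR targets, and 0 Nrf2 targets either way. All genes gave 3.33% higher and 2.42% lower. Of 20 CAR and PXR targets 12 lay above 0 with a median of 0.02, with Slco1a4, a hepatic uptake transporter, at -0.24 (SE 0.09) without overlap, and of 19 Nrf2 targets 10, with Nqo1 at -0.05 (SE 0.17) and Hmox1 at 0.08 (SE 0.10). Without the second array at 300 mg/kg 4 Nrf2 targets lay above 0, and without the fourth at 500 mg/kg 6.

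Stress and protein turnover genes held no member at an unadjusted p under 0.05 in 4 of 5 lists. Of 18 heat shock genes 15 lay above 0 with a median of 0.08, but 9 with the third array at 500 left out. The smallest p of that list belonged to Hspd1, the mitochondrial chaperonin, at 0.12 (SE 0.07), and the widest difference to Hspa4l at 0.29 (SE 0.19). Of 26 targets of the integrated stress response 16 lay above 0 with a median of 0.12. The median was -0.02 (11 above 0) without the third array at 300 mg/kg, 0.01 without the first or the third at 500 and 0.23 without the second at 500. Its widest differences had wide errors, with Atf3 at 0.53 (SE 0.49) and Fgf21 at -0.51 (SE 0.81). Proteasome subunits had 18 of 30 above 0. Ribosomal proteins had 10 of 28, and 19 without the first array at 300 mg/kg. In the endoplasmic reticulum list, with 14 of 29 above 0, Erlec1 and Sel1l of the degradation machinery differed by -0.12 (SE 0.05) and -0.17 (SE 0.08). Of 23 genes of bile acid synthesis and transport 9 lay above 0, with Fgfr4, the receptor that restrains bile acid synthesis, at -0.18 (SE 0.07) and Cyp7a1, its rate-limiting enzyme, at 0.23 (SE 0.49).

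In the whole dose course Cyp4a1 kept near its control level up to 300 mg/kg. It averaged 10.95 to 11.09 in the 6 groups from 0 to 300 mg/kg, with SDs of 0.16 to 0.31, and 11.68 ± 0.25 (SD, n = 4) at 500. The difference from control at 500 mg/kg was 0.69 for Cyp4a1, -0.85 for Cav2, -0.58 for Serpina6 and 0.53 for Atp1b1. These genes were chosen for their values on the same 4 arrays at 500 mg/kg, so their distance from control is no independent support for the step. Cav2 averaged 8.04 ± 0.15 (SD, n = 5) in controls, 7.86 ± 0.09 at 100, 7.77 ± 0.35 at 300 and 7.19 ± 0.17 at 500 mg/kg (n = 4 each). Cpt1a differed: its control mean of 10.61 ± 0.37 (SD, n = 5) lay between those at 300 (10.77 ± 0.21) and 500 mg/kg (10.07 ± 0.27). Noct averaged 4.26 ± 0.53 in controls, 4.65 to 5.12 in the groups from 0.1 to 300 mg/kg and 5.98 ± 0.33 at 500. For other genes of smallest p, the arrays at 300 mg/kg lay below control and those at 500 near it. Fam151b differed from control by -0.41 at 300 and 0.05 at 500 mg/kg, Hoxa11 by -0.35 and 0.18, Dip2a by -0.26 and 0.16, Cdc42ep5 by -0.24 and 0.18, and Atp1b2 by -0.23 and 0.13. The same arrays at 300 mg/kg entered the choice of these genes, so their distance from control is no independent support either.

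**Figure D4:**
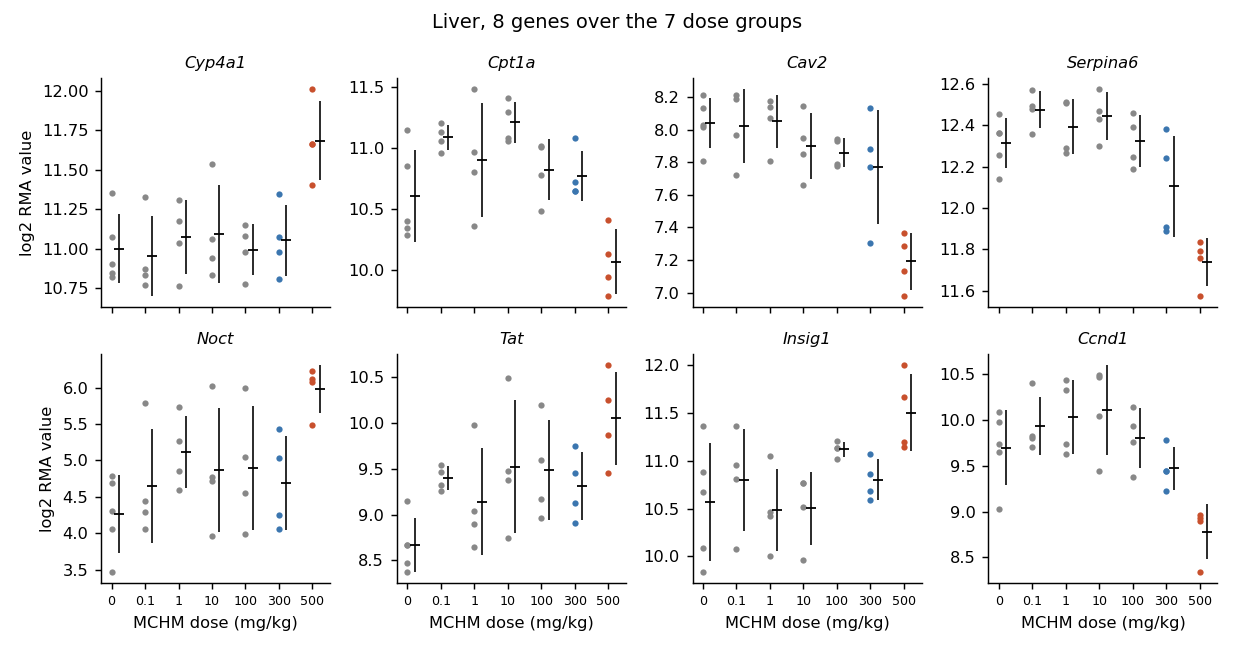
Log2 values of Cyp4a1, Cpt1a, Cav2, Serpina6, Noct, Tat, Insig1 and Ccnd1 in all 29 liver arrays by dose (horizontal axis, mg/kg, evenly spaced groups); points are arrays, and the black mark and bar are the mean and SD. Cyp4a1 lies at 10.95 to 11.09 on average up to 300 mg/kg and at 11.68 at 500, and Noct has no array at 500 mg/kg below 5.49.

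Shares of genes with small p values were close in the last 2 dose steps. Between neighbouring liver doses, from 0.1 to 1 up to 300 to 500 mg/kg, the unadjusted p was under 0.05 for 3.73%, 2.85%, 4.16%, 6.36% and 5.75% of genes. The arrays of neighbouring doses did not overlap for 1.74%, 1.99%, 2.45%, 3.56% and 2.85%. In kidney the unadjusted shares were 3.27%, 3.2%, 4.4%, 4.84% and 4.6%, and no step in either organ gave a call. Neighbouring steps share a group, so these shares are not independent of each other. How the shares differ between steps was not tested.

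**Figure D5:**
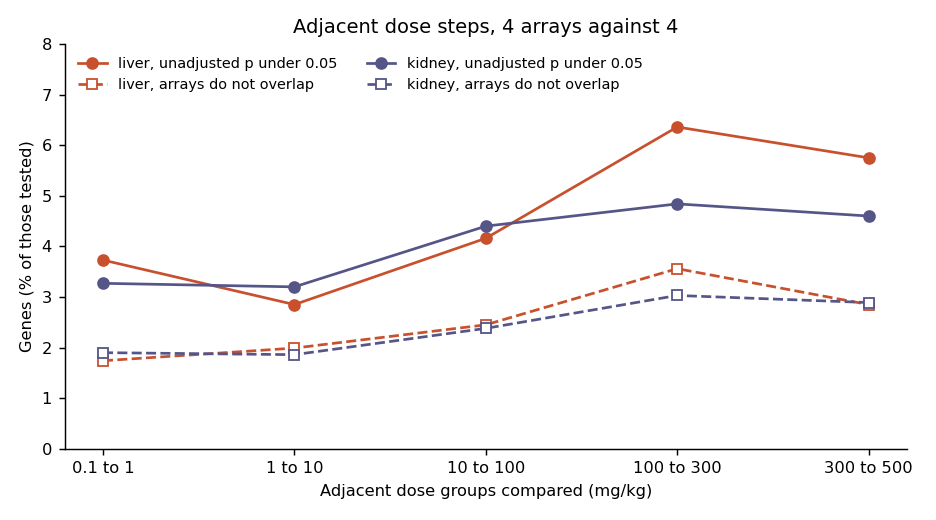
Share of genes (%, vertical axis) with an unadjusted limma p under 0.05 (filled points) and with arrays that do not overlap (open points) for each pair of neighbouring doses (horizontal axis, mg/kg) in liver and kidney. The liver shares are highest for 100 to 300 (6.36%) and 300 to 500 mg/kg (5.75%), and each pair compares 4 arrays with 4.

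The same step in kidney also gave 0 calls of 11204 genes (0%), with 515 genes at an unadjusted p under 0.05 (4.6%) and 324 whose arrays did not overlap (2.89%). The test of the liver step minus the kidney step gave 0 calls of 10673 genes, with 353 at an unadjusted p under 0.05 (3.31%), and no gene was shown to differ between the organs in its step. The labels do not say whether a liver and a kidney of the same number came from 1 rat, and this fit treats all arrays as unrelated. The smallest p belonged to Hmgn1, a nucleosome-binding protein, which differed by -0.17 in liver and 0.16 in kidney (difference between organs -0.33, adjusted p = 0.480). Atp1b2 differed by 0.36 in liver and -0.20 in kidney (0.57 between organs, adjusted p = 0.827), Chek1 by 0.58 and -0.32 (0.90, adjusted p = 1.00) and Tent5c by -0.70 and 0.14 (-0.85, adjusted p = 1.00). Cyp4a1 stood at 0.63 in liver and 0.06 in kidney, Cpt1a at -0.70 and -0.06, and Noct at 1.29 and -0.52. By list, oxidative phosphorylation had 28 of 49 subunits above 0 in kidney (48 of 49 in liver), fatty acid oxidation 8 of 30 (22 of 30), cell cycle 4 of 45 (13 of 40) and macrophage markers 2 of 17 (2 of 19), where 58.3% of all kidney genes and 54.5% of all liver genes lay above 0. Interferon genes had 4 of 30 above 0 in kidney (6 of 32 in liver) and heat shock genes 16 of 18 (15 of 18). Sterol genes had 18 of 20 above 0 in kidney (14 of 20 in liver). Amino acid breakdown had 19 of 33 (31 of 37) and fatty acid synthesis 8 of 21 (16 of 22). The differences between the organs' lists were not tested.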

How the data were processed

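The deposited table holds 1 log2 intensity per probe set and array, summarised by the authors with RMA, per the submitters' processing notes, which give no version. Of 31099 probe sets, 20826 had 1 gene symbol in the platform annotation, 436 several and 9780 none. Probe sets had to exceed the 40th percentile of their array in 4 or more arrays of an organ, and the brightest stood for its gene. Groups came from the sample titles, which call the arrays biological replicates and name no batch. The difference was tested in limma 3.58.1 under R 4.3.3 (lmFit, eBayes with intensity trend, two-sided) with a mean per dose group over the 29 arrays of an organ. Genes with a Benjamini-Hochberg adjusted p under 0.05 were called. The fit was tested on simulated data. An array has no read depth, and the number of arrays limits the precision.

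The genes named are the 15 with the smallest p each way, the 3 largest differences each way, up to 4 members of each of 43 lists with the smallest p, and in kidney and for the difference between organs the 5 smallest p each way, of which the text gives a selection. Further list members, the genes called at 300 mg/kg and the list counts with arrays left out were chosen after their values were seen. Members and lists were chosen with earlier results of these data known. List counts carry no test. In liver they are to be read beside all genes, with 54.5% above 0 and 3.33% higher and 2.42% lower at an unadjusted p under 0.05. Promoter motifs had been planned for called genes, and with 0 calls none were searched. Alternatives covered the filter, probe set choice, variance model, array weights, normalization, replicate block and each array left out.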

Additional observations from a re-analysis of the deposited data

Results flagged for a closer look

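Of 206 groups of 4 arrays examined (103 genes at 2 doses), 10 held an array far from the other 3, where chance flags about 1 in 20, or 10.3. At 300 mg/kg these were Cpt1a at 11.08 in replicate 2 (the others 10.65 to 10.72), RT1-Ba at 8.20 in replicate 1 (9.41 to 9.51), Pygl, glycogen phosphorylase, at 11.15 in replicate 1 (11.21 to 11.22) and Ifi27 at 12.50 in replicate 1 (12.80 to 12.84). At 500 mg/kg they were Fam220a at 6.11 in replicate 2 (6.34 to 6.38), Ccnd1 at 8.34 in replicate 2 (8.90 to 8.96) and Cyp3a2 at 13.69 in replicate 2 (13.80 to 13.83). Ciita stood at 4.59 in replicate 3 (5.20 to 5.31), RT1-Ba at 4.47 in replicate 4 (8.22 to 8.34) and Arg1 at 13.19 in replicate 4 (12.96 for each of the others).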

How the results depend on the processing

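The count of liver calls was 0 in 20 of 21 alternatives and 1, Cav2, without replicate 1 at 300 mg/kg, so that it ran from 0 to 1 with single arrays left out. Kidney gave 0 in all 15 alternatives and the difference between organs 0 in all 23. Genes at an unadjusted p under 0.05 numbered 443 to 860 in liver, 412 to 696 in kidney and 228 to 499 for the difference between organs, the 228 under the stricter filter on dim probe sets. The other filters and, in liver, the run on all probe sets changed the number tested, so these counts do not share a total. With single arrays left out and the same genes tested, they ran from 443 to 756, 412 to 665 and 309 to 450. For the 36 genes of smallest p or largest difference, 712 of 713 values kept direction and side of the threshold, 0 reversed and 1 passed it (Cav2, -0.74). Hoxa11, Atp1b2, Gpr158, Cdc42ep5, Batf2, Mef2c and Fam43a had 19 alternatives each and the others 20. The stricter filter on dim probe sets removed the former, so they were not examined there. All 36 genes were chosen for their values on the same arrays, so the counts are no independent support for their direction. Where the groups did not overlap, leaving out 1 array could not reverse a gene. No other named gene passed, with C5 nearest at an adjusted p = 0.0526. The replicate numbers were not shown to pair the arrays: deviations of same-numbered arrays correlated at -0.05 to 0.06, and 2 of 4 matched their own number best. With the number as a replicate block, liver, kidney and the difference between organs gave 0 calls each, with 614, 501 and 360 genes at an unadjusted p under 0.05. That block joins equal numbers across doses and is not a block by rat, so it does not address a pairing of the organs. With 4 arrays a group, a gene of median error has an unadjusted 95% interval of 0.22 to either side, and the adjusted threshold asks for larger differences than that. The cause of the Cav2 call was not tested.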
